A study of Homo sapiens with 6 samples.

Results

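The mitochondrially encoded protein genes described here are ND1, ND2, ND3, ND4, ND5, CYTB, COX1, COX2, COX3 and ATP6. They were taken by gene symbol from the count files, where mitochondrial genes carry no MT- prefix, and all 10 were found among 43424 symbols. RefSeq lists 13 protein genes for the mitochondrial chromosome, of which these are 10, and all 10 passed the filter on low counts. The libraries come from cells labelled HL-60, wild type, a human acute myeloid leukaemia line, and the labels place every sample after 6 months of exposure. In 3 libraries the exposure was to CIP (Corydalis incisa (Thunb.) Pers., a plant, given as its extract), raised slowly from 2 to 20 µg/ml, and in the other 3 it was to DMSO, the vehicle. The series describes the cells that grew through CIP as resistant and set out to find genes of CIP-induced differentiation. Reads came from QuantSeq, a kit that primes on poly(A) tails and reads the end of each transcript.

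Library totals were 8143657 to 10868396 counts. Genes detected per library numbered 15609 to 16325 with the CIP label and 17182 to 17524 with the DMSO label. Nothing in the labels tells whether replicates are separate cultures, and the spread behind each p-value may then be technical. HL-60 is known to make abundant myeloperoxidase (MPO) and to carry extra MYC. MPO had 77887 to 84917 counts in the CIP-labelled libraries and 9 to 15 in the DMSO-labelled ones, and MYC stood at 280.1 ± 52.3 against 41.8 ± 3.91 CPM (mean ± SD, n = 3), where CPM are read counts brought to a common library size by TMM scaling. The DMSO-labelled libraries therefore go against the background given for the line, and groups are named by their labels. A gene that "rose" or "fell" was higher or lower in the CIP-labelled libraries at an adjusted p under 0.05. Of 8 monocyte and macrophage markers, 4 fell and 1 did not pass among the 5 that could be tested, and their summed level was 18.7 to 28.3 CPM with the CIP label and 271.5 to 289.9 CPM with the DMSO label. CD163 had no counts in any library. Of 12 myeloid markers 7 rose and 5 fell (summed 10660 to 11280 against 2439 to 2579 CPM). That gap was MPO, since the other 11 summed to 2097 to 2465 against 2438 to 2578 CPM and overlapped, a sum chosen after seeing the data. Besides MPO and MYC, the markers that rose were CEBPE, SPI1, CEBPA, PRTN3 and CD33. CEBPE stood at 157.3 ± 16.01 against 10.2 ± 1.566 CPM with the DMSO label, and CEBPA at 396.1 ± 30.97 against 139.8 ± 10.13 CPM. The 5 that fell were CTSG, ELANE, MYB, AZU1 and ITGAM. Markers of either direction were named here after their values were seen. CTSG stood at 95.4 ± 4.78 against 654.7 ± 28.15 CPM with the DMSO label, and ELANE at 332.8 ± 32.9 against 592.1 ± 48.7 CPM. Of 8 lymphoid markers 3 of the 4 tested fell (3.73 to 4.97 against 87.5 to 108 CPM), with MS4A1 at 0. Of 8 erythroid and megakaryocyte markers 1 rose and 2 fell among 3 tested (56.5 to 64.9 against 162.1 to 171.2 CPM), with HBA2 and PF4 among those at 0, and of 7 tested fibroblast and epithelial markers none passed (58.0 to 143.2 against 140.6 to 251.6 CPM). The part of these differences in the mitochondrial values was not tested.

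Human mitochondrial DNA is a small circle that is transcribed from both strands as long precursors. Most messages are freed by cutting out the tRNAs that lie between them. Most then receive a poly(A) tail, which in several cases also completes the stop codon. The proteins are core subunits of the respiratory chain. ND1 to ND5 belong to complex I (NADH dehydrogenase), CYTB to complex III, COX1 to COX3 to complex IV (cytochrome c oxidase) and ATP6 to complex V (ATP synthase). Because nuclear genes supply the remaining subunits, each complex except complex II is a product of both genomes.

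The annotated ends of the genes are shown first because QuantSeq reads start at the ends of messages. The last 60 bases of 6 annotated transcripts (GENCODE release 29, GRCh38) are given below, chosen as the 3 genes with the largest increases, the 2 that fell, and the gene with the smallest difference. Capitals mark the letters of the last codon that the DNA itself supplies.
CYTB: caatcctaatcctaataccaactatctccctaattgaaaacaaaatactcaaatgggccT
ND1: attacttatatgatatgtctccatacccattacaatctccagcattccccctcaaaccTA
ND3: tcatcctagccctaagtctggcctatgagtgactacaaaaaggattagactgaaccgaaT
ATP6: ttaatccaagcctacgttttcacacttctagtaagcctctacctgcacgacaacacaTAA
ND5: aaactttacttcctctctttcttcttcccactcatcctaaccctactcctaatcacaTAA
COX1: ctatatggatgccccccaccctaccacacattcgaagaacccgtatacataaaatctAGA
These stretches lie on the plus strand at chrM:15828-15887 (CYTB), chrM:4203-4262 (ND1), chrM:10345-10404 (ND3), chrM:9148-9207 (ATP6), chrM:14089-14148 (ND5) and chrM:7386-7445 (COX1).

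The 10 genes differ at these ends. In 6 of them (ND1, ND2, ND3, ND4, CYTB and COX3) the transcript stops inside the last codon, with T or TA only, and the same 6 meet the next gene on their strand, a tRNA, with no base between. The other 4 carry a complete last codon. COX2 ends 25 bases and COX1 72 bases before the next tRNA of the strand, ND5 ends 598 bases before CYTB, and ATP6 overlaps COX3 by 1 base. A message that runs on into such a gap would give reads outside the annotated gene, and whether any does was not tested. Some ends are also copied in the nuclear genome. All 51 windows of 50 bases within the last 100 bases of ND1 occur in the nuclear transcript MTND1P23, and all 51 of COX1 occur in MTCO1P12. For COX2 17 windows occur in MTCO2P12, for ATP6 11 in MTATP6P1 and for ND5 2 in MTND5P11, while ND2, ND3, ND4, CYTB and COX3 had 0. The search took only exact matches to annotated transcripts, so a 0 does not exclude other or slightly different nuclear copies. The sources used here do not say how reads that match several places were counted. The values of ND1, COX1, COX2, ATP6 and ND5 are uncertain to that extent, and those of the other genes may be. The nuclear copies were not analysed here.

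Together the 10 genes supplied 10.05%, 10.56% and 9.38% of all counts in CIP replicates 1 to 3, against 8.54%, 8.51% and 8.66% in DMSO replicates 1 to 3. The groups did not overlap, and the means were 9.99% ± 0.59 and 8.57% ± 0.0784 (SD, n = 3). The exact two-sided permutation p was 0.10, the smallest that 3 against 3 libraries allow. Over all 37 genes of the mitochondrial chromosome the shares were 12.7% ± 0.552 and 11.9% ± 0.326 and overlapped (exact permutation p = 0.20). Of the 10 genes, 6 rose, 2 fell and 2 did not pass (edgeR's quasi-likelihood test, adjusted over 12844 genes). Among all genes tested 73.1% were called, 34.9% higher and 38.2% lower, so a call alone does not set these genes apart. The CPM of the groups did not overlap in 8 of the 10, beside 75.5% of all genes tested, with 6 above (36.1% of all genes) and 2 below (39.3%). What the values show is a spread within a single chromosome, from a log2 fold change of 1.96 for CYTB to -0.24 for ATP6 and ND5.

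**Figure D1:**
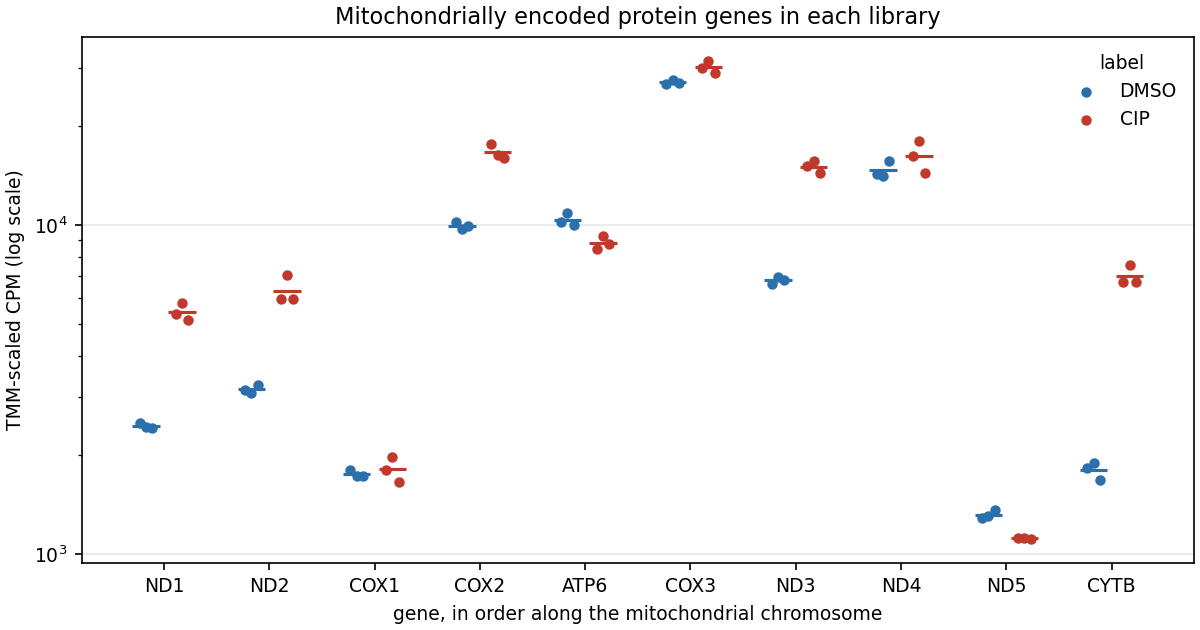
Level of each of the 10 genes in each library, as TMM-scaled CPM on a log axis, with genes in their order along the mitochondrial chromosome. Points are libraries (blue DMSO, red CIP) and bars are means of 3; the groups are clear of each other in 8 genes and overlap in ND4 and COX1.

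CYTB (chromosome M, 14747 to 15887), the cytochrome b of complex III and its only mitochondrially encoded subunit, rose most. It stood at 6708, 7556 and 6703 CPM in CIP replicates 1 to 3 and at 1821, 1895 and 1682 CPM in DMSO replicates 1 to 3. The lowest CIP-labelled library lay far above the highest DMSO-labelled one. The fold was 3.89, or 1.96 ± 0.0642 on the log2 scale (SE; adjusted p by edgeR 4.6e-24). By number of reads CYTB held rank 12 of all genes in every library with the CIP label and ranks 57 to 67 with the DMSO label. It was higher than 94.7% of tested genes by log2 fold change.

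Within complex I the 5 genes split. ND1 (3307 to 4262), ND2 (4470 to 5511) and ND3 (10059 to 10404), membrane-arm subunits, rose by about the same factor. ND1 stood at 5353, 5773 and 5131 CPM with the CIP label and at 2495, 2432 and 2423 CPM with the DMSO label. The groups were far apart, and the log2 fold change was 1.15 ± 0.0597 (SE; adjusted p by edgeR 2.6e-18). ND3, whose product lies in the part of the enzyme that couples electron transfer to proton pumping, stood at 15062, 15666 and 14371 against 6608, 6958 and 6822 CPM. Its log2 fold change was also 1.15 ± 0.058. Per ND3 count there were 0.360 ± 0.00717 ND1 counts with the CIP label and 0.361 ± 0.0148 with the DMSO label (SD, n = 3), a pair set side by side because their fold changes were alike. ND2 stood at 5968, 7020 and 5952 against 3159, 3084 and 3257 CPM, with a log2 fold change of 1.00 ± 0.0634, and CIP replicate 2 was the highest library for it.

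ND4 and ND5, the large antiporter-like subunits of the distal membrane arm, did not follow. ND4 (10760 to 12137) stood at 16203, 17939 and 14371 CPM with the CIP label and at 14248, 14051 and 15610 CPM with the DMSO label. The groups overlapped, and the log2 fold change of 0.14 ± 0.0664 did not pass (edgeR adjusted p = 0.052). That p was 3.4e-04 without CIP replicate 3 and 0.038 without DMSO replicate 3, with log2 fold changes of 0.23 and 0.18. ND5 (12337 to 14148) fell. With the CIP label it stood at 1118, 1119 and 1113 CPM, which were nearly equal, and the DMSO-labelled ones were all higher, at 1284, 1303 and 1358 CPM. Its log2 fold change was -0.24 ± 0.0581 (SE; adjusted p by edgeR 5.0e-04).

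The catalytic core of complex IV split as well. COX2 (7586 to 8269), the subunit that takes electrons from cytochrome c, stood at 17549, 16295 and 15919 CPM with the CIP label and at 10223, 9697 and 9929 CPM with the DMSO label. Every CIP-labelled library was above every DMSO-labelled one, and the log2 fold change was 0.74 ± 0.058 (SE; adjusted p by edgeR 1.9e-13). COX1 (5904 to 7445), which holds the haem and copper centre where oxygen is reduced, stood at 1804, 1971 and 1656 against 1801, 1732 and 1725 CPM. Its groups overlapped, and its log2 fold change of 0.047 ± 0.0625 did not pass (edgeR adjusted p = 0.50). With library totals alone it was called lower (log2 fold change -0.18, adjusted p by edgeR 0.0073). COX3 (9207 to 9990), the third core subunit, had more reads than any other gene in each of the 6 libraries. It stood at 30009, 31507 and 28835 against 26720, 27557 and 26909 CPM. COX3 rose by a small amount, 0.15 ± 0.0566 on the log2 scale (adjusted p by edgeR 0.015), with groups close but not overlapping. The call was lost with upper-quartile scaling (adjusted p = 0.082) and without DMSO replicate 1 (0.078), and the sign turned with library totals alone (log2 fold change -0.076).

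ATP6 (8527 to 9207), the proton channel subunit of ATP synthase, fell. It stood at 10219, 10890 and 10005 CPM with the DMSO label and at 8430, 9221 and 8759 CPM with the CIP label, so that every CIP-labelled library was lower. The log2 fold change was -0.24 ± 0.0584 (SE; adjusted p by edgeR 5.3e-04). Its last base is the first of COX3, which did not fall. A test of change beyond 1.5-fold called CYTB, ND1, ND2, ND3 and COX2 higher and none of the 10 lower, beside 19.2% higher and 26% lower among all genes. The decreases of ATP6 and ND5 and the increase of COX3 were therefore not shown to exceed that size.

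**Figure D2:**
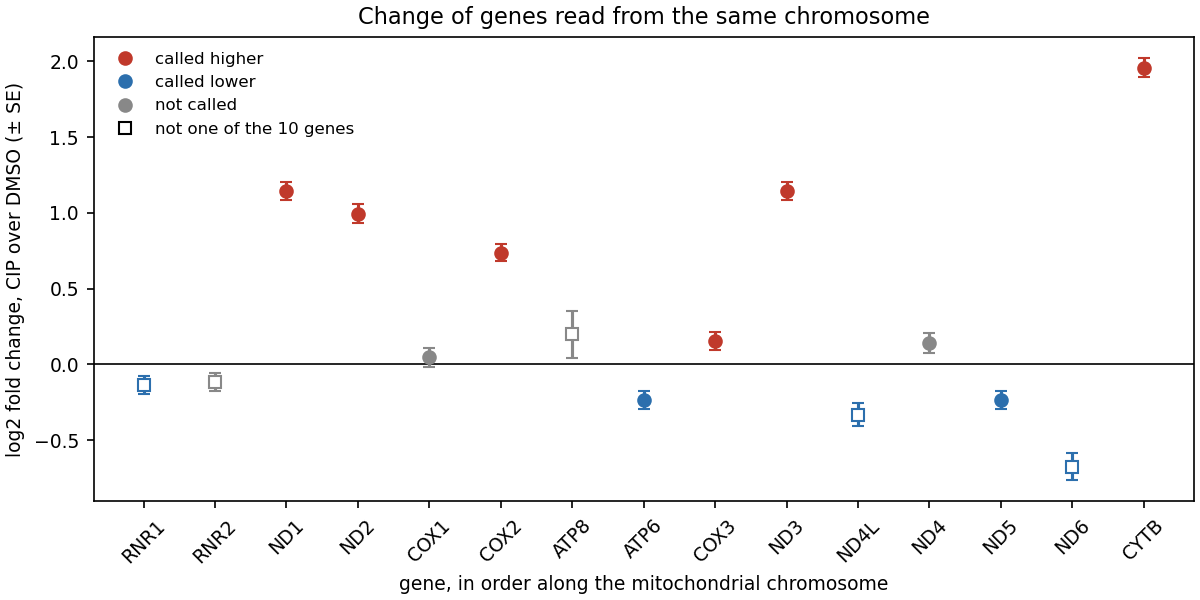
Log2 fold change (CIP over DMSO, ± SE from edgeR) of the protein and rRNA genes of the mitochondrial chromosome in chromosome order; filled circles are the 10 genes, open squares the other 5. Neighbouring genes differ in direction and size: ATP6 at -0.24 lies beside COX3 at 0.15 and ND3 at 1.15, and ND6 at -0.67 beside CYTB at 1.96.

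Scaling matters for values this close to 0, so the makeup of the summed counts of the 10 genes was also compared, which no scaling over nuclear genes can move. Each gene's share separated the groups without overlap, 5 higher and 5 lower with the CIP label. How many of all genes separate when set over the same sum was not computed. On TMM-scaled CPM 75.5% of all genes tested did, so the count alone does not set these 10 apart. CYTB took 6.20%, 6.62% and 6.52% of the sum with the CIP label against 2.32%, 2.38% and 2.11% with the DMSO label, 2.84 times as much by means. ND3 went from 8.57% ± 0.166 to 13.9% ± 0.128 (SD, n = 3), ND1 from 3.09% ± 0.0738 to 5.00% ± 0.0577, ND2 from 3.99% ± 0.108 to 5.82% ± 0.32 and COX2 from 12.2% to 13.01% across libraries to 14.3% to 16.2%. In the other direction COX3 went from 34.1% ± 0.445 to 27.8% ± 0.221 and ATP6 from 13.1% ± 0.569 to 8.13% ± 0.367. ND4 went from 18.5% ± 1.004 to 14.9% ± 0.877, COX1 from 2.21% ± 0.0711 to 1.67% ± 0.0588 and ND5 from 1.66% ± 0.0391 to 1.03% ± 0.0505. The exact permutation p was 0.10 for each, before and after adjustment over the 10 genes, the smallest possible. Shares of a sum depend on each other, so a rise of some forces a fall of others. With the sum used as library size in edgeR, all 10 passed, 5 higher and 5 lower, beside 73.3% of all genes tested (19.6% higher and 53.7% lower). In that fit ATP6 and ND5 had log2 fold changes of -0.69 and -0.68 relative to the sum (adjusted p = 1.4e-11 and 1.9e-11).

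**Figure D3:**
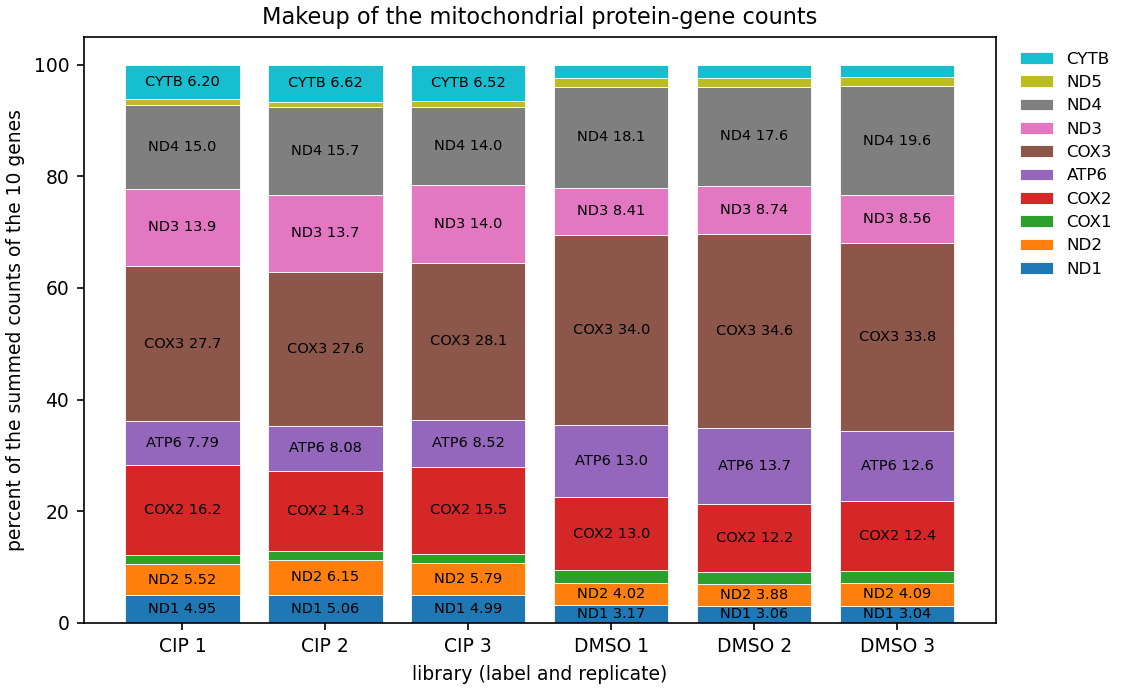
Share of each of the 10 genes in their summed counts, in percent, for each library; each bar adds to 100 and genes are stacked in chromosome order. CYTB grows from 2.11% to 2.38% of the sum with the DMSO label to 6.20% to 6.62% with the CIP label, while ATP6 and COX3 narrow.

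**Figure D4:**
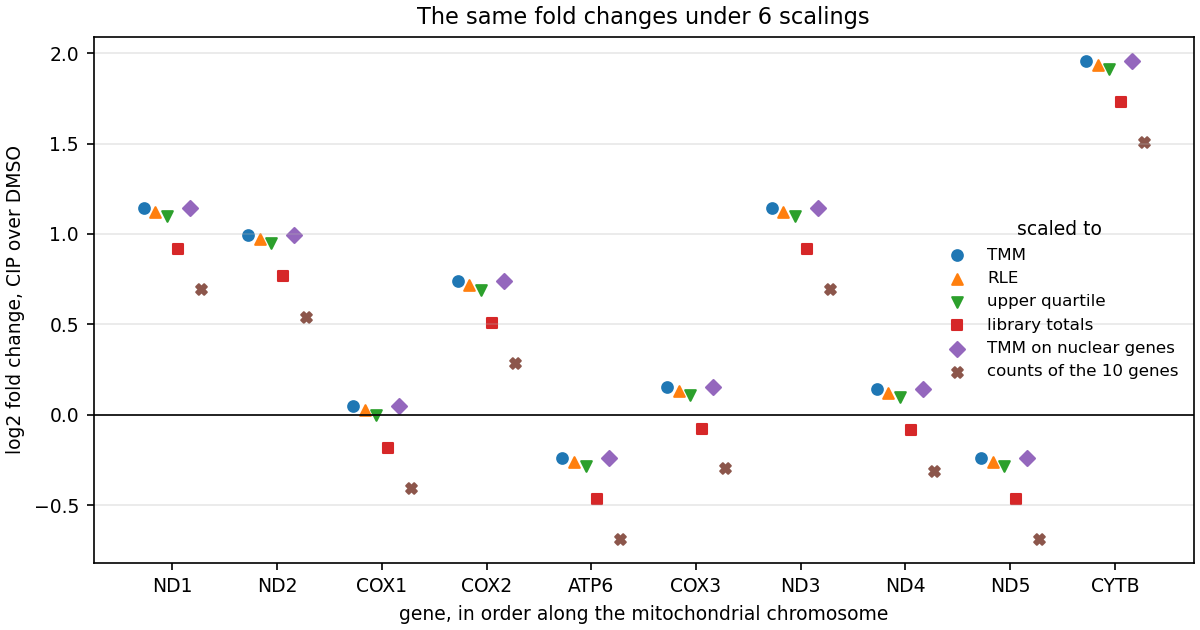
Log2 fold change (CIP over DMSO) of the 10 genes under 6 scalings, 1 symbol each, with genes in chromosome order. CYTB, ND1, ND2, ND3 and COX2 stay above 0 and ATP6 and ND5 below 0 under all 6, while COX1, COX3 and ND4 change sign with library totals and with the counts of the 10 genes as library size.

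By the features of their ends, the 6 genes with an incomplete last codon held 5 increases and 0 decreases, with log2 fold changes of 0.14 to 1.96. The 4 with a complete codon held 1 increase (COX2) and both decreases, with log2 fold changes of -0.24 to 0.74. The ranges overlap, the grouping was made with the values known, and it was not tested. Among the 5 genes whose last 100 bases share no exact window with an annotated nuclear transcript, 4 rose, 0 fell and ND4 did not pass. Among the 5 that share some, 2 rose, 2 fell and COX1 did not pass. That split was not tested either, and beside all these counts 34.9% of all genes tested rose and 38.2% fell.

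The remaining protein genes of the chromosome offered 2 comparisons inside a single message. ATP8 and ATP6 overlap and are translated from a shared mRNA. ATP8 did not pass, at 1174 ± 150 against 1023 ± 182 CPM (log2 fold change 0.20 ± 0.157, edgeR adjusted p = 0.30), and its sign turned with library totals alone. ATP8 was called higher in 4 of 16 alternatives, among them leaving out DMSO replicate 3 (log2 fold change 0.33, adjusted p by edgeR 0.0025). There were 7.21, 8.98 and 6.61 ATP6 counts per ATP8 count in the CIP-labelled and 10.3, 12.6 and 8.20 in the DMSO-labelled libraries, which overlapped (exact permutation p = 0.20). ND4L and ND4 also share a message. ND4L fell, from 832.5 ± 111 to 661.7 ± 39.4 CPM (log2 fold change -0.33 ± 0.0743, edgeR adjusted p = 2.7e-04), and ND4 counts per ND4L count were 24.1, 29.01 and 20.7 against 19.3, 17.5 and 16.4, with no overlap (exact permutation p = 0.10, the smallest possible). Reads that prime on the tail of a shared message fall in the downstream gene, and the source of the upstream partner's reads was not tested.

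ND6, the complex I subunit encoded on the opposite strand, fell from 130.7 ± 12.96 to 81.8 ± 11.4 CPM, or by 0.67 ± 0.0902 on the log2 scale (adjusted p by edgeR 8.1e-08). The sources used here do not say whether counting used strand, so ND6 reads cannot be told apart from antisense reads of the region between ND5 and CYTB. Whether ND6 reads start at a poly(A) tail was not tested. The mitochondrial rRNAs, which carry short poly(A) tails, differed little after TMM scaling. RNR1 (12S) fell from 3654 ± 269 to 3324 ± 73 CPM (log2 fold change -0.14 ± 0.0603, edgeR adjusted p = 0.042), a call lost in 5 of 16 alternatives, among them leaving out CIP replicate 1, CIP replicate 2 or DMSO replicate 3 (adjusted p up to 0.18). RNR2 (16S) stood at 22376 ± 676 against 24233 ± 1561 CPM and did not pass (edgeR adjusted p = 0.077). It was called lower in 7 of 16 alternatives, among them RLE scaling, library totals alone, and leaving out DMSO replicate 1 (adjusted p by edgeR 0.044) or DMSO replicate 2 (0.042). By share of all counts the rRNAs together took 2.37% ± 0.0438 with the CIP label and 3.01% ± 0.209 with the DMSO label, without overlap. With library totals alone the log2 fold changes of RNR1 and RNR2 were -0.37 and -0.35 (adjusted p by edgeR 5.2e-07 and 6.9e-07).

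Nuclear-encoded partners of the same complexes were read from lists, with calls from the same fit. Every list count below stands beside 34.9% rising and 38.2% falling among all genes tested. With library totals alone 3452 of all 12844 genes rose and 5920 fell. Among 37 nuclear subunits of complex I there were 24 that rose and 5 that fell, and the median log2 fold change was 0.44 beside -0.0345 over all genes tested. NDUFA10, an accessory subunit, rose from 46.0 ± 1.96 to 156.5 ± 12.6 CPM, and NDUFB3 rose from 26.3 ± 3.63 to 84.1 ± 27.8 CPM. NDUFB9 fell from 941.5 ± 31.3 to 239.8 ± 23.3 CPM. With library totals alone 19 rose and 10 fell. ND1, ND2 and ND3, at log2 fold changes of 1.00 to 1.15, lay above the median of their nuclear partners, and ND4 and ND5 below it.

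Complex III had the widest distance between genomes. CYTB rose 3.89-fold, while 4 of its 9 nuclear subunits rose and 5 fell, with a median log2 fold change of -0.28. UQCRH, the hinge protein, rose from 525.9 ± 34.4 to 1084 ± 2.8 CPM, UQCRQ from 205 ± 14.1 to 404.9 ± 29.7 CPM and UQCR10 from 115.5 ± 6.01 to 194.8 ± 7.11 CPM. None of the 9 reached the log2 fold change of CYTB, the highest being 1.04. Whether CYTB differs from its nuclear partners was not tested as such.

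Complex IV was mixed, with 7 of 12 nuclear subunits rising and 4 falling. Its median log2 fold change of 0.18 became -0.0531 with library totals alone, when 5 rose and 5 fell. COX7A2 rose from 219.2 ± 4.22 to 629.5 ± 73.2 CPM and COX6A1 from 81.5 ± 4.6 to 135.1 ± 7.83 CPM, while COX6C fell from 871.7 ± 39.9 to 310.8 ± 5.55 CPM. ATP6 fell while 11 of 18 nuclear complex V genes rose and 3 fell (median 0.41; 10 rose and 5 fell under library totals alone). ATP5F1A, the alpha subunit, rose from 262 ± 20.5 to 651.7 ± 21.4 CPM and ATP5MG from 483.3 ± 22.9 to 999.6 ± 72.5 CPM. ATP5IF1, the inhibitor of the enzyme, fell from 432.5 ± 28.2 to 250.6 ± 13.4 CPM. In complex II, which has no mitochondrially encoded subunit, SDHD rose from 5.25 ± 1.57 to 12.99 ± 7.18 CPM, SDHA and SDHC fell by 0.27 and 0.18 on the log2 scale although their groups overlapped, and SDHB did not pass. No complex II subunit fell without CIP replicate 1, and 1 fell without CIP replicate 2 or DMSO replicate 3.

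**Figure D5:**
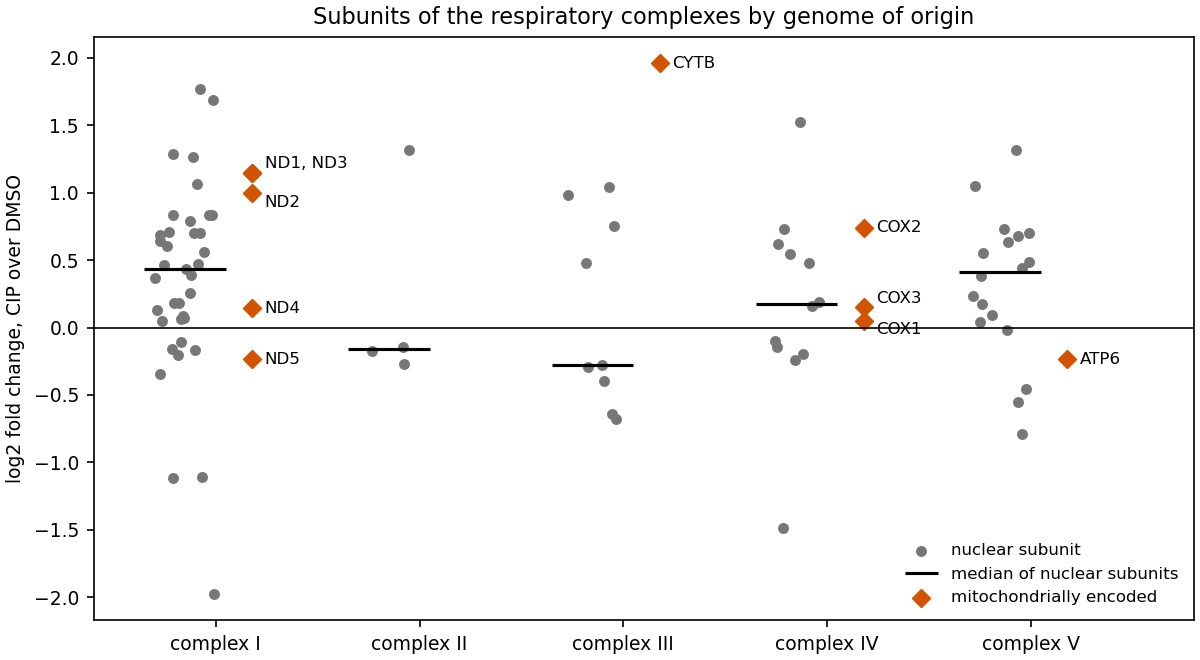
Log2 fold change (CIP over DMSO) of nuclear-encoded subunits (grey points, bar at the median) and of the 10 mitochondrially encoded genes (orange diamonds) for each respiratory complex. CYTB at 1.96 lies above all nuclear complex III subunits, and ATP6 at -0.24 lies below the complex V median of 0.41.

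Genes that copy, transcribe and handle mitochondrial RNA were read next. Of 9 transcription genes 5 rose and 2 fell (median log2 fold change 0.77). Among all genes tested 34.9% rose and 38.2% fell, which holds beside the lists that follow too. TFAM, which packages the DNA and starts transcription, rose from 83.1 ± 6.15 to 141.2 ± 6.77 CPM, and the initiation factor TFB2M rose from 5.50 ± 2.10 to 16.04 ± 3.27 CPM. The elongation factor TEFM rose from 4.96 ± 2.11 to 11.1 ± 1.78 CPM, and MTERF4 and MTERF1 rose to 23.95 ± 1.27 and 12.2 ± 0.93 CPM from 7.32 ± 1.32 and 5.32 ± 1.32 CPM. Both decreases, named after their values were seen, were MTERF2, from 4.64 ± 1.72 to 0.609 ± 0.563 CPM (log2 fold change -2.86, the largest change of the 9), and TFB1M, which methylates the 12S rRNA, from 87.7 ± 6.15 to 64.4 ± 1.49 CPM. The polymerase itself, POLRMT, did not pass, at 23.7 ± 3.13 against 25.3 ± 3.32 CPM (edgeR adjusted p = 0.60).

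Of 20 tested RNA processing and stability genes 12 rose and 4 fell (median 0.51, with 12 rising and 7 falling under library totals alone). MTPAP, the poly(A) polymerase that adds the tails from which QuantSeq primes, rose from 24.9 ± 3.08 to 58.7 ± 5.79 CPM (log2 fold change 1.23 ± 0.116, edgeR adjusted p = 1.7e-11). LRPPRC, which binds and stabilises mitochondrial messages, rose from 165.2 ± 5.15 to 253.6 ± 19 CPM. Its partner SLIRP fell from 317.2 ± 16.7 to 279.8 ± 12.3 CPM (edgeR adjusted p = 0.013), a call lost on leaving out DMSO replicate 2 or either of CIP replicates 1 and 2 (adjusted p up to 0.070). SUPV3L1, the helicase of the RNA-degrading complex, rose from 18.5 ± 2.65 to 41.8 ± 2.94 CPM, and FASTKD3 rose from 6.44 ± 1.56 to 14.6 ± 3.34 CPM. Of 14 translation factors 6 rose, 1 fell and 7 did not pass, and 5 rose and 4 fell with library totals alone. TSFM and GFM1, elongation factors, rose from 23.3 ± 5.04 to 66.1 ± 7.73 and from 36.0 ± 4.11 to 71.8 ± 3.26 CPM, and MTFMT, which formylates the initiator tRNA, fell from 45.3 ± 1.95 to 15.9 ± 1.76 CPM.

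DNA maintenance genes went both ways, with 4 of 15 tested rising and 6 falling (median -0.27). The helicase TWNK rose from 37.7 ± 5.96 to 83.6 ± 8.41 CPM and the ligase LIG3 from 54.9 ± 2.76 to 112.7 ± 9.83 CPM, while the exonuclease MGME1 fell from 31.7 ± 5.08 to 16.3 ± 1.74 CPM. Of 40 assembly factors 19 rose and 11 fell (12 and 16 with library totals alone). Among all genes tested 34.9% rose and 38.2% fell, and with library totals alone 3452 and 5920 of 12844 did. SCO2, a copper carrier for COX2, rose from 30.6 ± 0.443 to 96.7 ± 4.1 CPM, SURF1, an assembly factor of complex IV, from 11.9 ± 2.44 to 31.6 ± 4.91 CPM and NDUFAF4, of complex I, from 20.5 ± 3.69 to 50.8 ± 9 CPM. Among 9 regulators of mitochondrial biogenesis 4 rose and 2 fell. PPARGC1A (PGC-1alpha), a coactivator of that programme, fell from 33.0 ± 3.21 to 0.145 ± 0.0749 CPM. It had 973 counts over the DMSO-labelled and 4 over the CIP-labelled libraries. PPARGC1B and PPRC1, named after their values were seen, rose from 18.9 ± 2.01 to 38.8 ± 5.09 and from 24.4 ± 1.15 to 43.7 ± 3.83 CPM. The nuclear receptor ESRRA rose from 17.6 ± 2.24 to 57.2 ± 6.6 CPM and TFE3 fell from 16.1 ± 2.21 to 5.25 ± 0.421 CPM.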

How the data were processed

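Whole-number read counts per gene symbol were deposited by the authors, 1 file per library. STAR, HTSeq, fastp, bcl2fastq 2.20.0.422 and GRCh38 stand in the submitters' processing notes without roles. The annotation, strand and multi-match settings were not given in the sources used here. Mitochondrial symbols were matched to RefSeq (GRCh38.p14) and GENCODE, whose positions agreed for the protein genes.

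Counts were fitted with edgeR 4.0.16 (R 4.3.3): filterByExpr, TMM, robust quasi-likelihood test, group alone, 2-sided, Benjamini-Hochberg over 12844 genes, called under 0.05. CPM are counts over TMM-scaled totals of the tested genes; an SE is the log2 fold change divided by the square root of F. Shares and ratios of counts had exact permutation tests. Only the main edgeR fit was tried on simulated counts, in which far fewer genes changed than were called here. No pair of libraries in a group looked like a duplicate (chi-square per gene 3.9 to 8.14). Named genes are the 10, the other protein and rRNA genes of the chromosome, from each list the 3 most changed called genes reaching 5 CPM, and 7 fixed genes, with MPO and MYC as checks. Markers of myeloid, monocyte, lymphoid, erythroid and stromal cells were listed too. Members and lists were chosen with earlier results of these data known. Alternatives used DESeq2 1.42.0, limma 3.58.1, other scalings and filters, a replicate block and each library left out.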

Additional observations from a re-analysis of the deposited data

How the results depend on the processing

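Over 16 alternatives (scalings, filters, DESeq2, limma-voom, the replicate block and each library left out) ND1, ND2, ND3, CYTB and COX2 stayed called higher and ND5 and ATP6 called lower. CYTB ranged from 1.73 to 2.00 on the log2 scale and ATP6 from -0.47 to -0.19. Calls lower numbered 5 with the counts of the 10 genes as library size and 0 in a test beyond 1.5-fold, against 2. Among all genes tested 53.7%, 26% and 38.2% were called lower in these 3 fits. With library totals alone 5 were called higher and 3 lower, COX1 joining with an adjusted p by edgeR of 0.0073. Of all 12844 genes tested 3452 were then called higher and 5920 lower. With the counts of the 10 genes as library size, ND4, COX1 and COX3 turned to log2 fold changes of -0.31, -0.41 and -0.30. Under library totals alone they were -0.086, -0.18 and -0.076. COX1 was at -0.00805 without CIP replicate 2 and at 0.119 without CIP replicate 3, its lowest and highest with a library left out. Library totals moved the median of all genes from -0.0345 to -0.26, and 63.2% of calls were then lower in place of 52.3%; here a scaling shift itself turns the signs. The difference in share of counts, 1.43 percentage points, was 0.796 over all genes of the chromosome (the rRNAs, lower with the CIP label, then count too) and 1.15 to 1.73 with a library left out.

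Equal replicate numbers did not pair the libraries (correlations of deviations -0.0188, -0.0271 and -0.00992). With the replicate block 6 of the 10 genes were called higher and 2 lower, as without it. Of all 12844 genes tested 4306 were called higher and 4755 lower in that fit. There ND4 had an adjusted p by edgeR of 0.11 and COX3 of 0.0496, and ATP8 was called higher (0.0138). With no filter, without robust fitting, with limma-voom, and without CIP replicate 3 or DMSO replicate 3, ND4 was also called higher. Each of the 10 genes had at least 9664 counts in every library.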

Other observations

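Rows for the mitochondrial tRNA genes were looked at after the other values were seen, because these genes lie between the messages. Of 22 tRNA genes 14 could be tested, of which 6 rose, 3 fell and 5 did not pass. Those around ND1 rose. TRNL1, between the 16S rRNA and ND1, went from 203.5 ± 35.2 to 836.7 ± 84.5 CPM (log2 fold change 2.04 ± 0.12, edgeR adjusted p = 1.9e-08). TRNI, which begins at the base after ND1, went from 3.34 ± 1.10 to 36.4 ± 6.13 CPM, with 19 to 45 counts in the DMSO-labelled and 292 to 378 in the CIP-labelled libraries. TRNQ and TRNM, the next genes before ND2, went from 3.91 ± 1.71 to 15.7 ± 5.12 and from 6.42 ± 2.08 to 14.7 ± 1.72 CPM. TRNV, between the rRNAs, went from 5.84 ± 0.919 to 34.1 ± 3.93 CPM (adjusted p = 3.0e-15).

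TRNE, on the strand of ND6 and next to it, fell from 3.43 ± 1.16 to 0.463 ± 0.224 CPM, with 23 to 40 counts against 2 to 6. The remaining decreases were TRNY, from 24.2 ± 5.27 to 13.1 ± 3.05 CPM, and TRNF, from 263.8 ± 31.7 to 220.8 ± 5.65 CPM. TRNT, which begins at the base after CYTB, stood at 12.6 ± 1.63 against 12.3 ± 4.28 CPM and did not pass (adjusted p = 0.90). TRNR, after ND3, and TRNW, after ND2, had at most 4 and 2 counts in a library. The calls of TRNL1, TRNI, TRNQ, TRNM, TRNV, TRNE, TRNY and TRNF held in 16 of 16 alternatives. That of TRNS2, the sixth increase, was lost without DMSO replicate 2 (adjusted p by edgeR 0.059). Whether these reads come from tRNAs, from precursors or from the other strand was not tested.

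Of 12 mitochondrial protease and chaperone genes 5 rose and 5 fell, which became 3 and 6 with library totals alone. Among all genes tested 34.9% rose and 38.2% fell, and with library totals alone 3452 and 5920 of 12844 did. The chaperone HSPA9 fell from 129.1 ± 12 to 77.6 ± 3.7 CPM and the protease SPG7 from 33.0 ± 3.3 to 20.7 ± 1.58 CPM, while the protease HTRA2 rose from 16.8 ± 1.69 to 30.8 ± 4.83 CPM.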
